A study of Mus musculus with 8 samples.

Results

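The receptor that senses bacterial lipopolysaccharide (LPS) and its first signalling steps were described through 10 genes, Tlr4, Cd14, Ly96, Tlr2, Myd88, Ticam1, Ticam2, Irak1, Irak4 and Irak3, chosen by gene symbol. All 10 were listed in both deposited tables, among 19382 genes listed in either. Messenger RNA had been sequenced from activated hepatic stellate cells (AHSC), the collagen-producing cells of the injured liver, and from bone marrow derived macrophages (BMDM), all of C57BL/6 mice. The 4 groups had 2 libraries each. They were control AHSC, untreated by the labels and given vehicle by the legend of the study, and AHSC with 0.03 µM auranofin for 12 h. The others were BMDM given 100 ng/ml LPS and 1 mM ATP, and BMDM given the same LPS and ATP and also auranofin. That auranofin was at 0.1 µM by the labels and for 1 h by the paper's text. In other macrophage assays of the study, LPS was given for 4 h before ATP and auranofin were added. The legend of the macrophage sequencing plot gives no such order. Auranofin is a gold compound used against rheumatoid arthritis. The BMDM control was thus already stimulated through the receptor described here, and no macrophages without LPS were analysed here, whereas the labels give no LPS for AHSC. By the methods of the study, BMDM were grown with M-CSF for 7 days from marrow of male mice aged 8 weeks. The stellate cells came from a density gradient of nonparenchymal liver cells, and their donors' age is not given in the sources used here. No source says whether the libraries of a group came from separate cultures or animals, so p-values measure only the spread between these libraries.

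LPS is a lipid of the outer membrane of Gram-negative bacteria. CD14 (Cd14) captures it and passes it to MD-2, the product of Ly96, which sits on the receptor TLR4. At the cell surface TLR4 recruits MyD88, which gathers the kinases IRAK4 and IRAK1 and leads to NF-κB. From endosomes it signals through TRAM (Ticam2) and TRIF (Ticam1) towards interferon genes. TLR2 senses bacterial lipoproteins, also binds CD14 and uses MyD88, and IRAK-M (Irak3), known mainly from macrophages, restrains the kinases. In the liver, Kupffer cells, the resident macrophages, and stellate cells are both known to respond to LPS arriving from the gut.

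Levels were given as FPKM, the fragments of a gene after scaling for transcript length and sequencing depth. The tables hold no counts. From the steps between low values, 1 FPKM on a transcript of 1 kb was estimated to stand for 27.5 to 39.3 fragments, depending on the library, and the steps fix this depth only up to a whole factor. On this estimate the 8 members with a single listed transcript had between 508 and 2673 fragments in an AHSC library and between 366 and 42318 in a BMDM library. Their largest relative counting error was 4.44% in AHSC and 5.23% in BMDM. That error covers counting only.

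Libraries that stood apart bear on every result below. The AHSC libraries held macrophage RNA beside stellate RNA. The macrophage gene Lyz2 was at 5519 and 5554 FPKM in the AHSC controls and 5379 and 5440 FPKM with auranofin, and 12 macrophage markers summed to between 7413 and 7713 FPKM. The 12 stellate markers, with Acta2 and Col1a1 the highest, summed to between 3810 and 4517 FPKM. The levels in these libraries can therefore not be assigned to stellate cells. In BMDM the 12 macrophage markers summed to between 9737 and 10641 FPKM, whereas the 11 stellate markers listed there summed to between 5.70 and 11.0 FPKM. The macrophage sum in AHSC was mostly Lyz2, so the sums do not measure a share of macrophages. Adgre1 was at 106 and 111 FPKM in the AHSC controls and 400 and 418 FPKM in the BMDM controls. Csf1r was at 188 and 194 FPKM in the AHSC controls and 163 and 168 FPKM in the BMDM controls. Endothelial markers summed to between 272 and 288 FPKM in AHSC and hepatocyte markers to 1.86 FPKM or less. Neutrophil markers summed to 81.0 FPKM in AHSC auranofin replicate 2, against 6.50 to 19.1 FPKM in the other AHSC libraries. In BMDM the neutrophil markers summed to 171 and 180 FPKM in the controls, 234 FPKM in auranofin replicate 1 and 248 FPKM in replicate 2. The part of neutrophil RNA in the values of the members was not tested. Among BMDM libraries, auranofin replicate 1 stood apart, with 751 of 9232 genes differing at least 2-fold from replicate 2, against 36 between the controls. Its level of Hmox1, a stress gene known to respond to auranofin, was 4403 FPKM, against 82.7 and 86.7 FPKM in the controls. The library labelled BMDM auranofin replicate 2 had 85.3 FPKM, and its summed level over 8 genes of this response was 204 FPKM, next to 206 and 213 FPKM in the controls and 7080 FPKM in replicate 1. The BMDM values of the members are therefore given for each library, with the calls without either auranofin library.

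On the assembly GRCm38.p6 in RefSeq, which corresponds to the mm10 build of the tables, the members lie apart from each other on 9 chromosomes. Tlr4 (NCBI gene 21898) spans chromosome 4 from 66827551 to 66846581, Cd14 (12475) chromosome 18 from 36725064 to 36726815 and Ly96 (17087) chromosome 1 from 16688456 to 16709605. Tlr2 (24088) spans chromosome 3 from 83836272 to 83841824. Of the adaptors, Myd88 (17874) lies on chromosome 9 from 119335934 to 119340018, Ticam1 (106759) on chromosome 17 from 56269462 to 56276767 and Ticam2 (225471) on chromosome 18 from 46558231 to 46574533. Irak1 (16179) lies on chromosome X from 74013914 to 74023921, Irak4 (266632) on chromosome 15 from 94543613 to 94568317 and Irak3 (73914) on chromosome 10 from 120141648 to 120202130. The values of FPKM cover all exons of a gene. Irak1 contains 2 microRNA genes, Mir5132 and Mir718, and Irak3 overlaps 3 predicted genes, so the values of Irak1 and Irak3 could include reads of those genes.

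All 10 genes were expressed in all 8 libraries, and the lowest value was 4.42 FPKM, for Ticam2 in AHSC auranofin replicate 2. In the AHSC controls the co-receptor Cd14 was the highest, at 46.2 ± 0.0974 FPKM (SD, n = 2). The kinase gene Irak1 followed at 24.2 ± 1.61 FPKM (SD, n = 2), Myd88 at 22.8 ± 0.306 FPKM (SD, n = 2) and Tlr2 at 17.7 ± 1.70 FPKM (SD, n = 2). Each of these 4 genes was separated from the next in both libraries. Tlr4, Ly96, Ticam1 and Irak4 came next, at means between 11.3 and 13.1 FPKM, and neighbours in this order overlapped. The inhibitor Irak3 at 5.70 ± 0.120 FPKM (SD, n = 2) and the adaptor Ticam2 at 4.65 ± 0.294 FPKM (SD, n = 2) were the lowest.

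In the BMDM controls the order differed and its range was wider. Cd14 was at 470.7 ± 8.43 FPKM (SD, n = 2), Myd88 at 206 ± 1.39 FPKM (SD, n = 2), Tlr2 at 126 ± 2.74 FPKM (SD, n = 2) and Ly96 at 41.8 ± 0.407 FPKM (SD, n = 2). Ticam1 followed at 20.9 ± 0.0324 FPKM (SD, n = 2). Below these stood Irak1 at 10.9 ± 0.262, Tlr4 at 8.93 ± 0.161, Irak3 at 8.01 ± 0.563, Ticam2 at 5.86 ± 0.237 and Irak4 at 4.63 ± 0.104 FPKM (SD, n = 2). No neighbours in this order overlapped. The receptor itself was therefore only the seventh of the 10 members in level, while its co-receptors and Myd88 lay far above it.

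**Figure D1:**
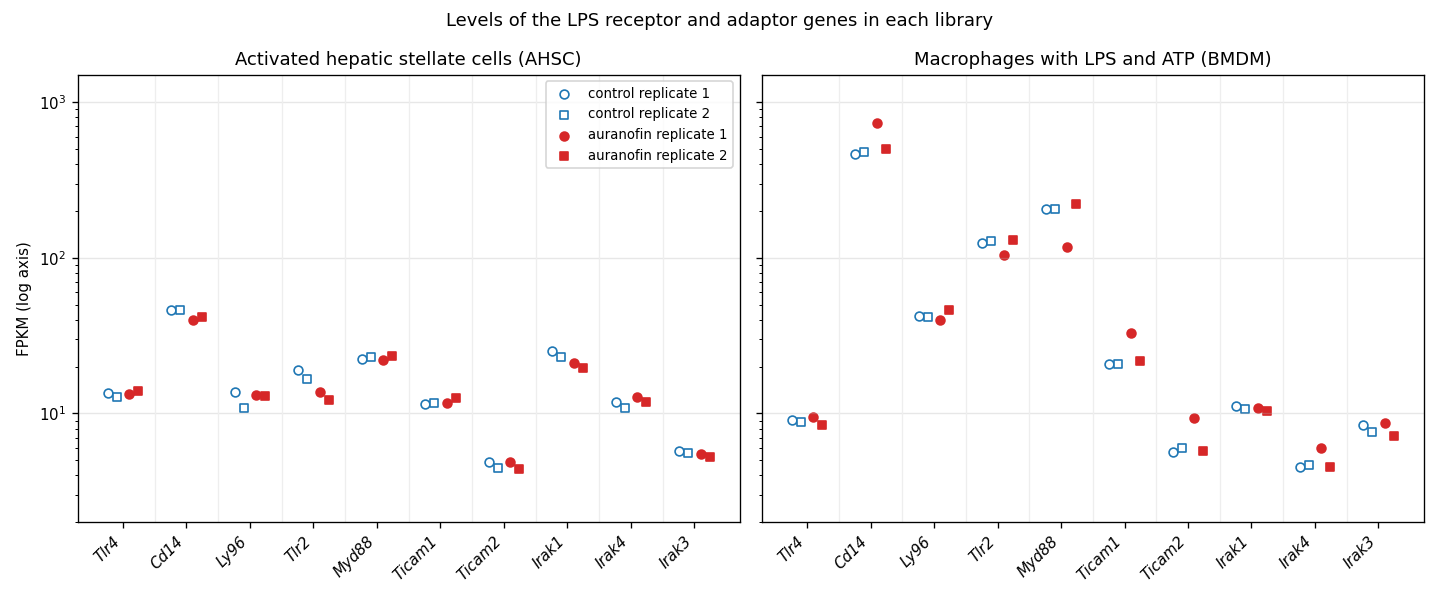
FPKM (log axis) of the 10 genes in each library, with AHSC on the left and BMDM on the right; open blue symbols are control libraries and filled red symbols auranofin libraries. Cd14, Myd88 and Tlr2 stand at 105 FPKM or higher in every BMDM library and at 46.3 FPKM or lower in every AHSC library, whereas Tlr4 lies between 8.45 and 13.9 FPKM in all 8.

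The tables were normalized separately and the cell types differ in LPS, so their levels were set side by side without a test. By FPKM of the controls, 7 of the 10 members were higher in the BMDM table, from 1.26-fold for Ticam2 and 1.41-fold for Irak3 to 9.07-fold for Myd88 and 10.2-fold for Cd14. Ly96 was 3.42-fold, Tlr2 7.08-fold and Ticam1 1.80-fold higher there. The AHSC table had the higher value for Tlr4 (1.47-fold), Irak1 (2.22-fold) and Irak4 (2.44-fold). The share of all genes higher in the BMDM table was not computed, so these counts are not read as a result about the members. The median over all listed genes was 4.238 and 4.185 FPKM in the AHSC controls and 1.208 FPKM in both BMDM controls. By percentile rank among the genes with a nonzero value in a library, averaged over the controls, 8 members were higher in BMDM. Ranks depend on the other genes of a table, and with its lower median the BMDM table gave a higher rank to the same FPKM. Tlr4 made the difference, at 68.4% in AHSC and 70.1% in BMDM. Only Irak1 (81.7% and 73.1%) and Irak4 (64.9% and 59.2%) ranked higher in AHSC by this measure. The level of Tlr4 thus gave no order between the cell types that held under both scales.

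Ratios within a library do not depend on its scaling and show how the parts of the complex stood to each other. Ly96 and Tlr4 were near parity in AHSC, with ratios of 1.02 and 0.845 in the controls and 0.997 and 0.926 with auranofin. In BMDM the ratio was 4.65 and 4.70 in the controls, 4.21 in auranofin replicate 1 and 5.46 in replicate 2. The ratio of Cd14 to Tlr4 was 3.44 and 3.62 in the AHSC controls and 2.99 and 2.98 with auranofin. It was 51.4 and 54.0 in the BMDM controls, 78.2 in auranofin replicate 1 and 59.2 in replicate 2. In both cell types the auranofin libraries thus lay outside the controls, below them in AHSC and above them in BMDM.

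Between the adaptors of the surface and endosomal routes, the ratio of Myd88 to Ticam1 was nearly constant in AHSC, at 1.96 in both controls, 1.89 in auranofin replicate 1 and 1.87 in replicate 2. In BMDM it was 9.82 and 9.93 in the controls and 10.2 in auranofin replicate 2, but 3.54 in auranofin replicate 1. Ticam2 and Ticam1, whose products act together, kept a ratio between 0.265 and 0.289 in all 4 BMDM libraries, replicate 1 included, and between 0.354 and 0.423 in AHSC. Among the kinases, Irak1 to Irak4 was 2.15 and 2.14 in the AHSC controls and 1.64 and 1.66 with auranofin. In BMDM this ratio was 2.44 and 2.28 in the controls, 1.83 in auranofin replicate 1 and 2.27 in replicate 2. The inhibitor Irak3 was at 0.428 to 0.520 of Irak4 in AHSC and at 1.46 to 1.85 of it in BMDM. The ratios are given as a description and were not tested.

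**Figure D2:**
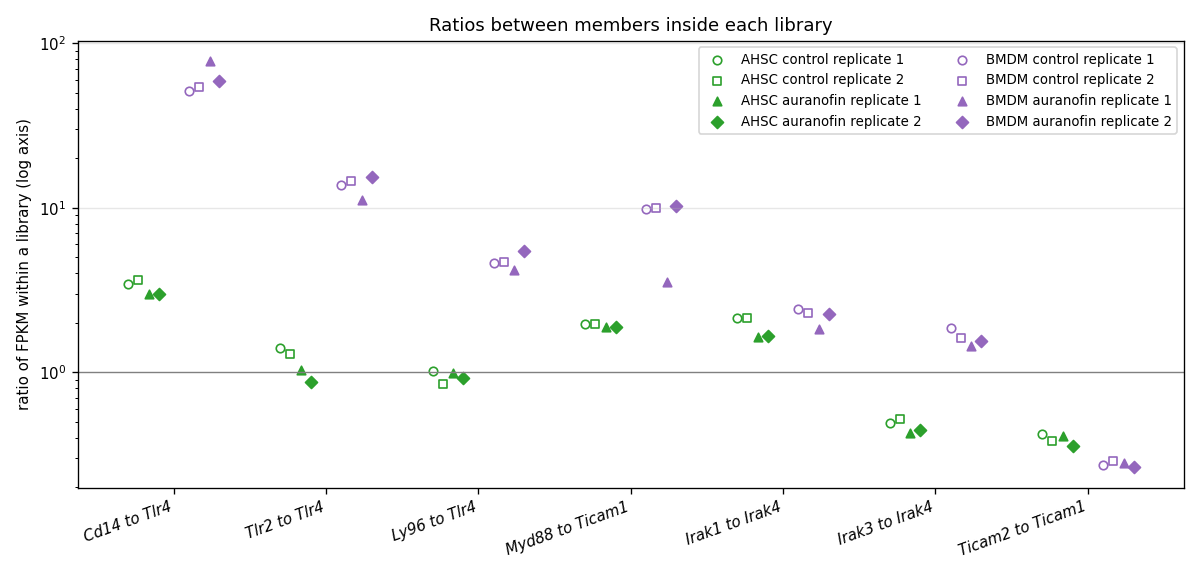
Ratios of FPKM between members within each library (log axis, with a line at 1), green for AHSC and purple for BMDM; open symbols are controls and filled symbols auranofin. The ratio of Myd88 to Ticam1 in BMDM auranofin replicate 1 (3.54) lies apart from the other BMDM libraries (9.82 to 10.2), and in AHSC the ratios of Irak1 to Irak4 and of Cd14 to Tlr4 are lower in both auranofin libraries.

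The AHSC comparison asked what auranofin did to these genes in stellate cultures. In AHSC none of the 10 members passed the adjusted test, and those with the largest differences were Tlr2, Irak1 and Cd14, all lower with auranofin. The test was limma on log2(FPKM + 1) with Benjamini-Hochberg adjustment over the 12149 genes whose mean reached 1 FPKM. Of those genes, 2.33% had an adjusted p below 0.05, and 0.576% were past a fold of 1.5 with an unadjusted p under 0.05, with 0 of 10 members under either rule. Of the members, 3 were lower at an unadjusted p under 0.05, next to 9.22% of all genes tested. Both auranofin libraries lay below both controls in 4 members and above them in 2, next to 23.9% and 26.2% of all genes. The median absolute log2 fold change was 0.08 for the members and 0.06 for all genes tested.

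Of the receptors, Tlr2 was at 19.0 and 16.5 FPKM in the controls and at 13.7 and 12.2 FPKM with auranofin, so the groups did not overlap. The log2 fold change was -0.43 (SE 0.08, adjusted p = 0.0662 by limma). This corresponds to a level 25.5% lower on the log2(FPKM + 1) scale, with a 95% confidence interval of the log2 value from -0.63 to -0.22. With auranofin replicate 2 alone its size was larger than in 98.5% of all genes tested, and with replicate 1 alone larger than in 95.7%. With a library left out, the adjusted p by limma was under 0.05 without control replicate 1 (0.0494, when 4.06% of all genes were called) and without control replicate 2 (0.00730, when 3.08% were). Leaving out an auranofin library gave 0.0711 for replicate 1 and 0.141 for replicate 2. Tlr4 itself was at 13.5 and 12.7 FPKM in the controls and at 13.3 and 13.9 FPKM with auranofin. Those groups overlapped, and its log2 fold change was 0.05 (SE 0.05, 95% confidence interval from -0.07 to 0.17).

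The co-receptor Cd14 was at 46.3 and 46.2 FPKM in the AHSC controls and at 39.7 and 41.4 FPKM with auranofin. All auranofin values were below the controls, by a log2 fold change of -0.19 (SE 0.04, adjusted p = 0.0776 by limma). Ly96, which encodes the LPS-binding MD-2, had 13.7 and 10.8 FPKM in the controls and 13.2 and 12.9 FPKM with auranofin. The controls of Ly96 enclosed the auranofin libraries, and its interval of the log2 fold change, from -0.16 to 0.35, was the widest of the 10.

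Of the kinases, Irak1 was at 25.3 and 23.1 FPKM in the AHSC controls and at 21.0 and 19.7 FPKM with auranofin. The groups did not overlap, and the log2 fold change was -0.24 (SE 0.06, adjusted p = 0.121 by limma). That adjusted p by limma was 0.0350 without control replicate 2, and 0.204, 0.186 and 0.264 without control replicate 1, auranofin replicate 1 and auranofin replicate 2. Irak4, the kinase upstream of Irak1, was at 11.8 and 10.8 FPKM in the controls and at 12.8 and 11.8 FPKM with auranofin. The values of Irak4 with auranofin lay above both controls only narrowly, at a log2 fold change of 0.12 (SE 0.06, adjusted p = 0.388 by limma). The inhibitor Irak3 was at 5.78 and 5.61 FPKM against 5.50 and 5.26 FPKM, at a log2 fold change of -0.07 (SE 0.05).

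The adaptors of both routes stayed within narrow limits in AHSC. Myd88 was at 22.5 and 23.0 FPKM in the controls and at 22.2 and 23.4 FPKM with auranofin, with an interval of the log2 fold change from -0.11 to 0.11. Ticam1 was at 11.5 and 11.7 FPKM against 11.8 and 12.5 FPKM, and Ticam2 at 4.86 and 4.44 FPKM against 4.85 and 4.42 FPKM. The log2 intervals ran from -0.06 to 0.18 for Ticam1 and from -0.17 to 0.17 for Ticam2. The summed level of the 10 members was 174 and 165 FPKM in the controls and 158 in both auranofin libraries.

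**Figure D3:**
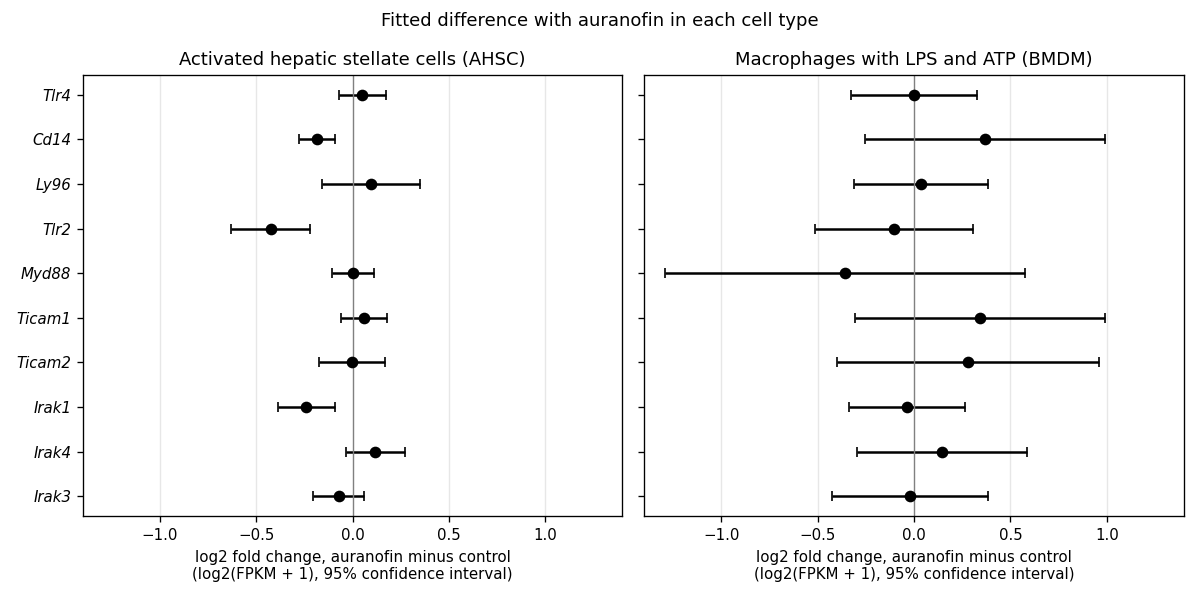
Log2 fold change of each gene, auranofin minus control, with its 95% confidence interval from limma, for AHSC on the left and BMDM on the right. In AHSC the intervals of Tlr2, Cd14 and Irak1 lie below 0 before adjustment, and in BMDM every interval includes 0 and those of Cd14, Myd88, Ticam1 and Ticam2 are the widest.

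Marker levels moved with the AHSC groups as well. The summed stellate markers were at 4382 and 4517 FPKM in the controls and 3810 and 3908 FPKM with auranofin, a mean 13.3% lower, with 7 of 12 markers below both controls in both libraries. Of the 12 macrophage markers, 10 had lower and 2 higher means with auranofin, with 3 below and 1 above both controls. The summed mean of the macrophage markers, mostly Lyz2, was 2.64% lower. The 6 Kupffer cell markers had a summed mean 5.87% higher, with 2 below and 2 above both controls. Their part in the lower values of Tlr2, Cd14 and Irak1 was not tested, and in bulk RNA fewer cells of a type and less RNA per cell cannot be told apart. A list of 8 genes known to rise downstream of LPS, among them Tnf, Il6 and Cxcl10, summed to 111 and 100.2 FPKM in the controls and to 85.9 and 84.3 FPKM with auranofin. Of these 8 genes, 6 were below both controls in both auranofin libraries. For these marker and gene lists, the share of all AHSC genes tested was 23.9% below and 26.2% above both controls. The AHSC cultures did show the response known for auranofin, with Hmox1 at 391 and 368 FPKM in the controls and 1297 and 1141 FPKM with auranofin.

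The promoters of Tlr2 and Irak1 are shown because these receptor and kinase genes had the lowest values with auranofin in AHSC relative to their controls. The sequences are RefSeq promoters on GRCm38.p6, of which 6 of the 10 members were matched here. Each run is 5′ to 3′ on the strand of the gene, from 250 bases before the start site to 10 bases after it. Capitals mark matches to the 10-base NF-κB motif, searched on both strands, and overlapping matches were joined.
Tlr2, chr3:83841599-83841858, minus strand: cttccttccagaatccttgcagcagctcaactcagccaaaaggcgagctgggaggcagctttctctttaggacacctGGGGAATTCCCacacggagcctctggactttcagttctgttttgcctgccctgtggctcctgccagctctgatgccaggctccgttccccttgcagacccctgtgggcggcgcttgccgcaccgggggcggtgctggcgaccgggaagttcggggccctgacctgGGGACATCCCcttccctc
Irak1, chrX:74023912-74024171, minus strand: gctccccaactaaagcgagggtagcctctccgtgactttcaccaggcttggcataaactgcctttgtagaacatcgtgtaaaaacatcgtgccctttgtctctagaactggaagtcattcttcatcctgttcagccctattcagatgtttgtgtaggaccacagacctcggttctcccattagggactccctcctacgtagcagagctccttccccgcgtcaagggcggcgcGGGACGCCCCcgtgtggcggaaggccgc
The start site of this Tlr2 window lies 216 bases inside the outermost end of the gene. Tlr2 held NF-κB matches from -173 to -163 and from -8 to 2, counted from the start site, and Irak1 held a match from -18 to -9. Of 27025 promoter windows of 300 bases in RefSeq, 8.18% held such a match. Neither promoter held the AP-1 motif TGANTCA or the interferon response core GAAANNGAA, which were found in 7.93% and 8.57% of all windows. A match is a description of letters and was not tested as a site.

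In BMDM, where the comparison asked what auranofin did under LPS and ATP, none of the 10 members passed the test. Of the 9232 genes tested by limma, 0.0108% (1 gene) had an adjusted p below 0.05, and 0.152% were past a fold of 1.5 with an unadjusted p under 0.05. None of the members passed either rule, and 0 had an unadjusted p under 0.05, next to 0.531% of all genes. Adjusted p-values by limma of the 10 members were 0.721 or higher. Both auranofin libraries lay above both controls in 2 members, Cd14 and Ticam1, and below them in 0, next to 26.3% and 12.6% of all genes. The median absolute log2 fold change was 0.13 for the members and 0.17 for all genes tested.

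The co-receptor Cd14 was at 465 and 477 FPKM in the BMDM controls, 739 FPKM in auranofin replicate 1 and 500.5 FPKM in replicate 2. Replicate 1 thus had 157% of the control mean and replicate 2 106%. The fitted log2 fold change was 0.37 (SE 0.22, adjusted p = 0.721 by limma). Ly96 was at 42.0 and 41.5 FPKM in the controls, 39.7 FPKM in auranofin replicate 1 and 46.1 FPKM in replicate 2. Its auranofin libraries lay on opposite sides of the controls.

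Tlr4 was at 9.05 and 8.82 FPKM in the BMDM controls, 9.45 FPKM in auranofin replicate 1 and 8.45 FPKM in replicate 2. The auranofin libraries of Tlr4 enclosed the controls, and the log2 fold change of 0.00 had an interval from -0.33 to 0.33. Tlr2 was at 124 and 128 FPKM in the controls, 105 FPKM in auranofin replicate 1 and 130.0 FPKM in replicate 2. Only replicate 1 lay below the controls, at 83.5% of their mean.

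Of the members, the adaptors showed the widest gap between the auranofin libraries on the log2 scale. Myd88 was at 205 and 207 FPKM in the BMDM controls and 221 FPKM in auranofin replicate 2, but at 117 FPKM, 56.7% of the control mean, in replicate 1. Ticam1 went the other way, with 20.9 FPKM in both controls, 33.1 FPKM in auranofin replicate 1 and 21.6 FPKM in replicate 2. Ticam2 was at 5.69 and 6.03 FPKM in the controls, 9.32 FPKM in auranofin replicate 1 and 5.72 FPKM in replicate 2. In auranofin replicate 1, Myd88 was thus below the controls, while Ticam1 at 158% and Ticam2 at 159% of the control mean were above them. Tirap, which bridges TLR4 to MyD88 and is not a member, was named after its values were seen. It was at 5.645 and 6.14 FPKM in the controls and 5.971 FPKM in auranofin replicate 1, between the controls.

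Over all genes tested, the median log2 difference of auranofin replicate 1 from the control mean was 0.18. In this library the difference of Myd88 was larger in size than that of 87.2% of all genes, and those of Cd14, Ticam1 and Ticam2 were larger than in 80.7%, 80.1% and 77.1%. The fitted log2 fold changes over both libraries were -0.36 (SE 0.34) for Myd88, 0.34 (SE 0.23) for Ticam1 and 0.28 (SE 0.24) for Ticam2. Each of these intervals included 0.

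The kinases and the inhibitor differed less in BMDM. Irak1 was at 11.1 and 10.7 FPKM in the controls, 10.9 FPKM in auranofin replicate 1 and 10.4 FPKM in replicate 2. Irak4 was at 4.55 and 4.70 FPKM in the controls, 5.96 FPKM in auranofin replicate 1 and 4.56 FPKM in replicate 2, so that replicate 1 had 129% of the control mean. Irak3 was at 8.41 and 7.61 FPKM in the controls, 8.67 FPKM in auranofin replicate 1 and 7.12 FPKM in replicate 2.

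Without the library labelled auranofin replicate 2, which resembled the controls in the auranofin response genes, 6 of the 10 members had an adjusted p under 0.05 by limma, as did 65% of all genes tested. They were Myd88 and Tlr2, which were lower, and Cd14, Ticam1, Ticam2 and Irak4, which were higher. This rests on 1 auranofin library, assumed to vary like the controls. Without auranofin replicate 1, 0 of the 10 members had an adjusted p under 0.05 by limma, next to 0.141% of all genes. The 8 LPS response genes of replicate 1 summed to 6745 FPKM, against 11541 and 11529 FPKM in the controls and 11927 FPKM in replicate 2. Its 12 macrophage markers summed to 10641 FPKM, against 10071 and 9737 FPKM in the controls, but they did not move together. Lyz2 was at 4279 FPKM in replicate 1, against 3743 and 3625 FPKM in the controls. Fcgr1 was at 183 FPKM, against 338 and 331 FPKM, and Mertk at 14.5 FPKM, against 27.6 and 28.8 FPKM. Over both auranofin libraries, 4 of the 12 markers had lower and 8 higher means. The part of this library's other differences in the values of Myd88, Ticam1 and Cd14 was not tested.

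**Figure D4:**
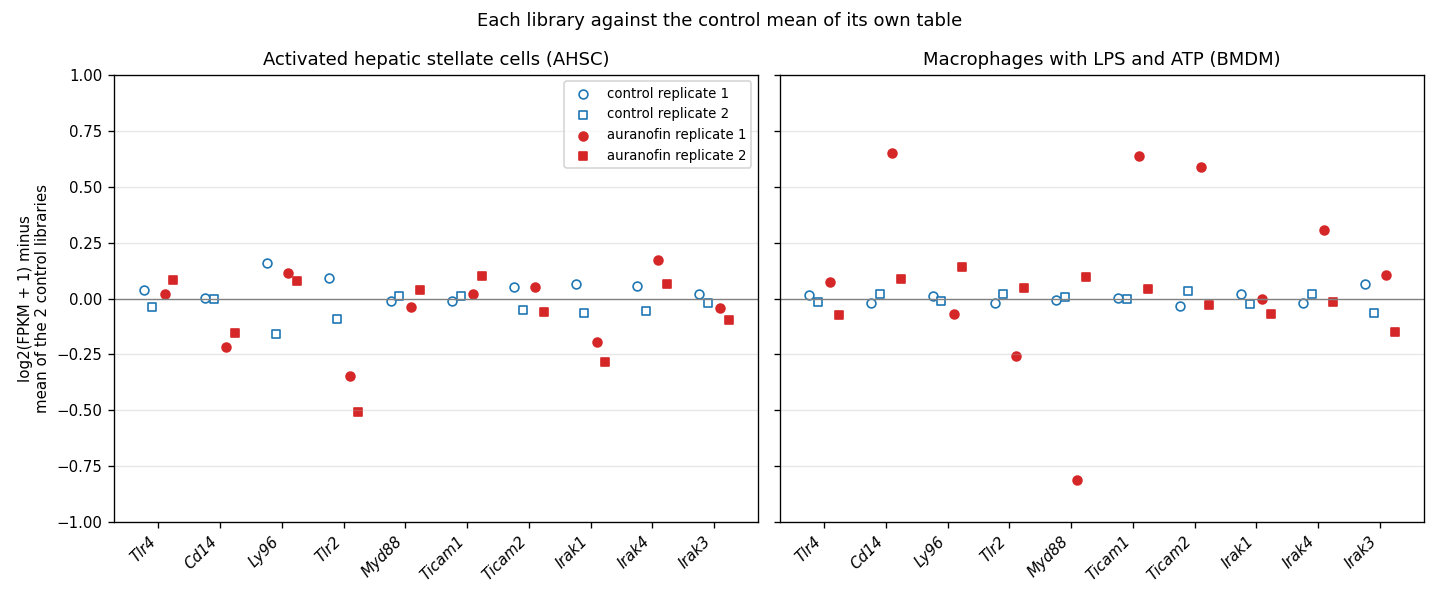
Difference of each library from the mean of the control libraries of its own table, on the log2(FPKM + 1) scale, with open blue symbols for controls and filled red symbols for auranofin. In AHSC the auranofin libraries of Tlr2, Cd14 and Irak1 lie together below the controls, whereas in BMDM only replicate 1 (red circles) departs widely, to -0.81 for Myd88 and to 0.65, 0.64 and 0.59 for Cd14, Ticam1 and Ticam2.

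The promoters of Myd88 and Ticam1 are shown because these adaptor genes took opposite directions in BMDM auranofin replicate 1. They are given as above, and capitals mark matches to the interferon response core GAAANNGAA, the AP-1 motif TGANTCA or the NF-κB motif, on either strand.
Myd88, chr9:119340009-119340268, minus strand: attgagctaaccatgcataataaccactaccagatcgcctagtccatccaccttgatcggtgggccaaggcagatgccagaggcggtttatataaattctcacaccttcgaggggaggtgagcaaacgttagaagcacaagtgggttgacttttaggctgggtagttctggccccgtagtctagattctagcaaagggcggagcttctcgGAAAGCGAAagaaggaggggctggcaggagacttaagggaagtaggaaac
Ticam1, chr17:56276758-56277017, minus strand: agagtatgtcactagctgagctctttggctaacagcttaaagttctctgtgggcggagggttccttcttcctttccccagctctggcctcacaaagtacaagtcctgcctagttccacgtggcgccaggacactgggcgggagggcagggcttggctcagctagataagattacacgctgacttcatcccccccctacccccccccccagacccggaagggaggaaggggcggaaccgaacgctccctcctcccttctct
Myd88 held an interferon response core from -40 to -32 that overlaps a match to the STAT motif TTCNNNGAA from -46 to -38, found in 8.47% of all windows. Ticam1 held none of these motifs in this window. The GC box (GGGCGG), a motif found in 35.9% of all windows, was in all 4 promoters shown, with 3 matches in Ticam1, 2 in Tlr2 and 1 each in Myd88 and Irak1. The antioxidant response motif TGACNNNGC was in neither promoter, and in 12.5% of all windows. These searches were on both strands and give no measure of binding.

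The rest of the pathway was described through 56 further genes of LPS and Toll-like receptor signalling. In AHSC, 50 were tested, of which 20 had higher and 30 lower means with auranofin. Tlr13 and Cd36 rose, and 0 fell, by the adjusted test, next to 2.33% of all genes tested that were called in either direction. Tlr13, a receptor of bacterial ribosomal RNA, was at 47.1 and 45.8 FPKM in the controls and at 56.1 and 54.3 FPKM with auranofin. Its log2 fold change was 0.24 (SE 0.04, adjusted p = 0.0395 by limma). Cd36, a scavenger receptor that cooperates with TLR2, was at 207 and 197 FPKM in the controls and at 234 and 242 FPKM with auranofin. Its log2 fold change was also 0.24 (SE 0.04, adjusted p = 0.0464 by limma). Neither gene kept its call without the filter on low values (adjusted p = 0.104 for Tlr13 and 0.138 for Cd36 by limma) or without a variance trend (0.0984 and 0.115), and Cd36 had 0.0615 with quantile normalization. Both also lost it when either auranofin library or control replicate 2 was left out. These rises stood beside a summed Kupffer marker level 5.87% higher, although 3 of the 6 markers had higher and 3 lower means. The part of Kupffer cell RNA in these rises was not tested.

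Some partners of the members were named after their values were seen. Tlr1, which pairs with TLR2, was at 7.73 and 7.14 FPKM in the AHSC controls and at 5.92 and 6.27 FPKM with auranofin, at a log2 fold change of -0.25 (SE 0.06, adjusted p = 0.1098 by limma). Tlr6, the other partner of TLR2, was at 3.75 and 3.52 FPKM against 3.17 and 3.91 FPKM. Tirap, which bridges TLR4 to MyD88, was at 4.88 and 4.95 FPKM against 4.77 and 4.60 FPKM. Irak2, a further kinase of the family, was at 12.6 and 12.3 FPKM against 11.4 and 11.5 FPKM, with an adjusted p = 0.263 by limma. The largest fitted difference of the 50, 0.90 in Ube2v1, a cofactor of the ubiquitin enzyme that works with TRAF6, came from control replicate 2. That library had 17.2 FPKM, against 57.0 to 62.1 FPKM in the other AHSC libraries.

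In BMDM, 47 of the 56 genes were tested, 18 with higher and 29 with lower means, and 0 passed the test in either direction. No gene of the 47 had an unadjusted p under 0.05 by limma. Without auranofin replicate 2, 13 of the 47 were higher and 23 lower at an adjusted p under 0.05 by limma, where 65% of all genes were called, and without auranofin replicate 1 there were 0 in either direction. The largest fitted differences were those of Nrros, Ikbke and Tlr3. Nrros, a protein that binds Toll-like receptors in the endoplasmic reticulum, was at 34.8 and 18.5 FPKM in the controls, 6.48 FPKM in auranofin replicate 1 and 16.2 FPKM in replicate 2. Ikbke, a kinase below TRIF, was at 190 and 181 FPKM in the controls, 70.6 FPKM in auranofin replicate 1 and 177 FPKM in replicate 2. Tlr3, a receptor of double-stranded RNA that also uses TRIF, was at 68.3 and 70.1 FPKM in the controls, 25.8 FPKM in auranofin replicate 1 and 71.1 FPKM in replicate 2. The adjusted p was 0.721 by limma for each of the 3. For Ikbke and Tlr3 only auranofin replicate 1 stood apart, whereas the controls of Nrros differed from each other too.

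By role, 9 of 10 tested other Toll-like receptors and lipid-binding partners had lower means in BMDM with auranofin, at a median log2 fold change of -0.44. With auranofin replicate 2 alone the count was 4 of 10 and the median 0.02, and with replicate 1 alone 8 of 10 and -0.80. Tlr1 was at 82.3 and 83.9 FPKM in the controls, 38.7 FPKM in auranofin replicate 1 and 83.8 FPKM in replicate 2. Tlr6 was at 31.2 and 30.5 FPKM in the controls, 15.9 FPKM in auranofin replicate 1 and 31.9 FPKM in replicate 2. Both partners of TLR2 were thus lower in replicate 1 than Tlr2 itself, relative to the controls. The 5 other roles had medians between -0.12 and 0.10, next to 0.09 over all genes tested. With auranofin replicate 1 alone these medians ran from -0.28 for the transcription factors to 0.27 for the inhibitors of receptor signalling, and with replicate 2 alone from -0.07 to 0.05.

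**Figure D5:**
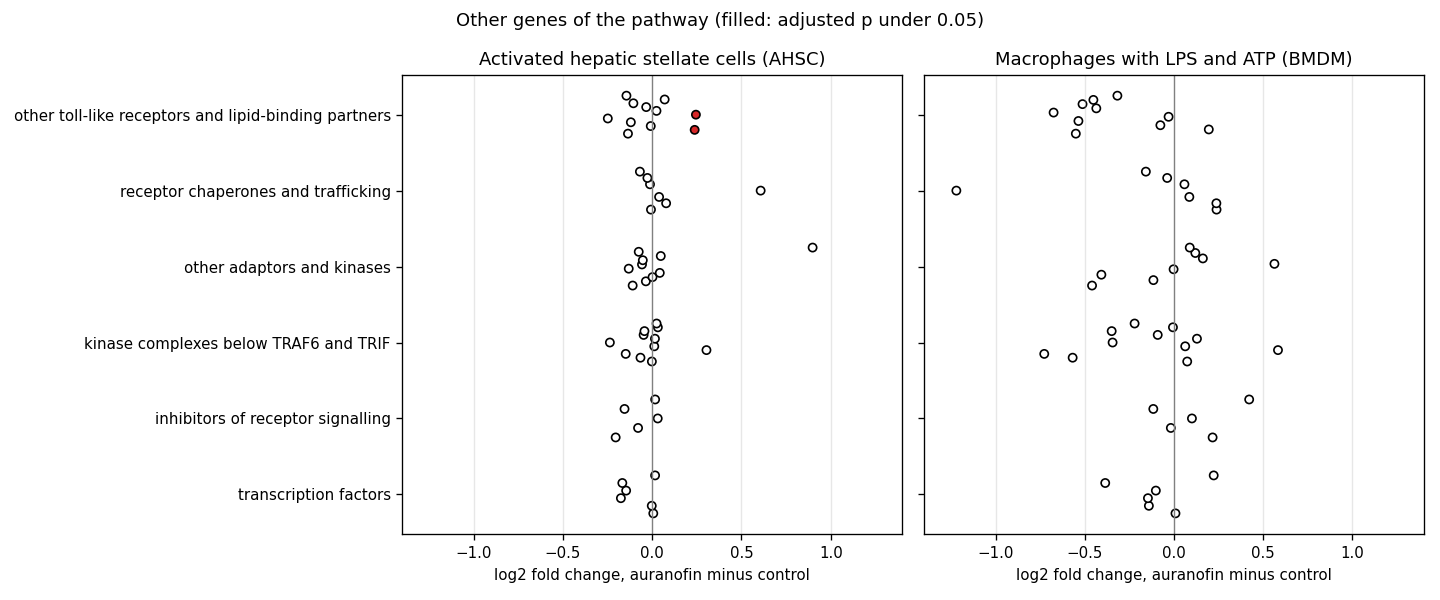
Log2 fold changes, auranofin minus control, of the tested genes of the rest of the pathway by role, for AHSC on the left and BMDM on the right; each point is a gene and filled points have an adjusted p under 0.05 by limma. In AHSC the filled points are Tlr13 and Cd36, both at 0.24, and in BMDM 9 of 10 other Toll-like receptors and lipid-binding partners lie below 0.

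The genes whose levels followed those of Tlr4 most closely were found by Pearson's correlation over the 8 libraries, after centring each table, among 3704 genes whose mean reached 10 FPKM in both. They were Slc30a9 (0.956), Abcc5 (0.922) and Adam10 (0.912), a zinc transporter family member, an export pump and a membrane protease. For Irak3 they were Snrpe (0.937), Gpr137b-ps (0.935) and Cyth1 (0.923). The points share libraries and depth, and these are the highest of 3704 values, so they are given as a description.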

How the data were processed

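The authors deposited FPKM values in 2 tables, on UCSC mm10 with RefSeq transcripts. The submitters' processing notes name CASAVA, FastQC 0.11.7, Trimmomatic 0.38, HISAT2 2.1.0 and StringTie 1.3.4d, and libraries were made from 1 µg of total RNA with a stranded mRNA kit. Whether the quantification used strand is not given in the sources used here. Groups and replicate numbers were taken from the labels. For BMDM the labels give 0.1 µM auranofin and the legend of the paper 0.3 µM, with an exposure of 1 h by its text, against 12 h for AHSC.

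Each table was analysed alone, since they were normalized separately. After a log2(FPKM + 1) transformation, genes whose mean in a table reached 1 FPKM were kept, and limma 3.58.1 in R 4.3.3 (lmFit, eBayes with trend) compared auranofin with control, with Benjamini-Hochberg adjustment over all genes tested and two-sided p-values. Fold changes on this scale understate the change of genes with low values. Genes were called at an adjusted p under 0.05, or past a fold of 1.5 with an unadjusted p under 0.05. The fit was tested on simulated data. Depth was estimated from genes with a single transcript and values under 0.2 FPKM, with transcript lengths of GENCODE M21. Promoters and coordinates were those of RefSeq on GRCm38.p6. Python 3.11.15, pandas 2.3.3 and matplotlib 3.10.9 were used.

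The members and all gene lists were chosen with earlier results of these data known. Named are all 10 members, the pathway genes called in a cell type or else the 3 with the largest fold change there, and the 3 genes most like Tlr4 and like Irak3. Further names are said to be picked with their values in view, or belong to the marker and response lists. Alternatives were a pseudocount of 0.1, no filter, a minimum mean of 5 FPKM, quantile normalization, median centring, eBayes without trend, the replicate number as a block, each library left out in turn, and percentile ranks for levels.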

Additional observations from a re-analysis of the deposited data

Results flagged for a closer look

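Cd14 was flagged because its libraries moved in opposite directions in the cell types. The log2 fold change with auranofin was -0.19 in AHSC, where both auranofin libraries lay below both controls, and 0.37 in BMDM, where both lay above both controls. Whether these values differ was not tested, because the tables were normalized separately and dose, time and LPS differed. Neither value passed the adjusted test by limma. In BMDM the value rests mostly on auranofin replicate 1, and without that library it was 0.09. With groups of 2 libraries, no test for a single outlying library could be made.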

How the results depend on the processing

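Each alternative changed 1 choice. The number of the 10 members with an adjusted p under 0.05 by limma was 0 in both cell types under all settings that kept every library except the replicate block, where it was 1 (Tlr2 in AHSC, adjusted p = 0.0248). Over genes, replicate 1 minus replicate 2 in the controls correlated with the same in auranofin libraries at 0.109 in AHSC and -0.055 in BMDM. No label ties same-numbered libraries, so the numbers were not taken as pairs. With a library left out, the number of members ranged from 0 to 2 in AHSC and from 0 to 6 in BMDM, the latter without auranofin replicate 2. The genes with an adjusted p under 0.05 in AHSC, 283, were 49 with no filter, 129 without trend and 282 with the replicate block, and 177 to 493 with a library left out. Past a fold of 1.5 and an unadjusted p of 0.05 there were 70, and 124 with a pseudocount of 0.1, or 106 to 137 with a library left out. In BMDM the 1 gene with an adjusted p under 0.05 became 0 with no filter and with quantile normalization, where 499 and 70 genes had an unadjusted p under 0.05, 2 without trend, and 1 to 5997 with a library left out. Past the fold rule, 14 became 27 with a pseudocount of 0.1, 8 with a mean of at least 5 FPKM, 42 with the replicate block, and 14 to 2122 with a library left out. Left-out fits assume that a lone library varies like the other group.

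Of the members, only those with differences near 0 changed sign with all libraries kept. In AHSC, Myd88 had -0.0086 with quantile normalization and -0.0090 with median centring, and Ticam2 0.0088 with quantile normalization. In BMDM, Tlr4 had -0.102 and -0.0921 with these scalings and Ly96 -0.0577 with centring, which removes the median of 0.09 over all genes. With a library left out, log2 fold changes in AHSC ranged from -0.0623 to 0.257 for Ly96, -0.0357 to 0.0387 for Myd88 and -0.0581 to 0.0516 for Ticam2. In BMDM they ranged from -0.0725 to 0.0730 for Tlr4, -0.0698 to 0.139 for Ly96, -0.257 to 0.0485 for Tlr2, -0.812 to 0.0951 for Myd88, -0.0286 to 0.589 for Ticam2, -0.0156 to 0.307 for Irak4 and -0.148 to 0.103 for Irak3. Of members higher in BMDM controls than in AHSC controls, there were 7 by FPKM and 8 by percentile, and the share of all genes was computed for neither. The causes were not tested. Ticam2 in AHSC and Irak4 in BMDM were below the minimum of 5 FPKM and had no value there.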
